A study of Homo sapiens with 12 samples.

Results

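The genes described here encode CDK7 and the other subunits of TFIIH, the general transcription factor that carries CDK7. They were chosen by name: CDK7, CCNH, MNAT1, ERCC2, ERCC3, GTF2H1, GTF2H2, GTF2H3, GTF2H4 and GTF2H5, which are 10 of the 23621 gene rows in the tables. All 10 were active, meaning an FPKM above 1 in at least 1 of 12 libraries, and so were 14251 genes in all. A further 92 rows whose names start with ERCC and a dash are synthetic spike-in RNAs from the External RNA Control Consortium and have no connection with the repair genes ERCC2 and ERCC3.

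The libraries were made from the ovarian cancer cell lines KURAMOCHI (Ku) and COV362 (Cov), both labelled as untransduced. Ku cells were kept in RPMI and Cov cells in DMEM, each with serum. In each line there were 2 biological replicates of the vehicle DMSO, of THZ1 50 nM and of THZ1 250 nM, all taken after 6 hr. THZ1 is a covalent inhibitor of CDK7 that also acts on CDK12 and CDK13, so effects of CDK7 inhibition alone cannot be told apart from those of the related kinases. Each line is a single cell line, so replicates cover the spread of that line only. The measurement is FPKM, a count of fragments divided by transcript length and by mapped reads, which the authors normalized to spike-in RNAs added in proportion to cell number. FPKM is a level per length, so genes can be compared with each other within a library. Read counts and depth are unknown.

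TFIIH opens DNA at promoters so that RNA polymerase II can start transcription, and its kinase phosphorylates the tail of the polymerase. CDK7, its partner cyclin H (CCNH) and the assembly factor MAT1 (MNAT1) form the kinase module, which can also leave TFIIH and activate cell cycle kinases as the CDK-activating kinase. The remaining subunits form the core, in which the translocase XPB (ERCC3) and the helicase XPD (ERCC2) work on DNA both in transcription and in nucleotide excision repair.

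The promoters of the kinase module genes are shown because these 3 genes differed in how far their mRNA fell, and that of GTF2H1 because it holds the same E-box letters as CDK7. Each sequence runs 5′ to 3′ on the strand of the gene, from 250 bases before to 50 bases after the start of transcription, as RefSeq gives it on GRCh38.p14. They lie at chr5:69234636-69234935 (plus strand, CDK7, the first of 2 listed starts), chr5:87412881-87413180 (minus strand, CCNH), chr14:60734511-60734810 (plus strand, MNAT1) and chr11:18322317-18322616 (plus strand, GTF2H1). Capitals mark matches on either strand to the motifs searched, none of which overlap here.
CDK7: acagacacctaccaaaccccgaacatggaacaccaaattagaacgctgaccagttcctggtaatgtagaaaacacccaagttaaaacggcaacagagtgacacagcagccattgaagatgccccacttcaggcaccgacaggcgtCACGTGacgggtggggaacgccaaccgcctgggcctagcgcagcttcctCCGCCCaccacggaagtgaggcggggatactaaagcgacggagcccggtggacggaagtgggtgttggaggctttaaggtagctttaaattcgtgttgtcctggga
CCNH: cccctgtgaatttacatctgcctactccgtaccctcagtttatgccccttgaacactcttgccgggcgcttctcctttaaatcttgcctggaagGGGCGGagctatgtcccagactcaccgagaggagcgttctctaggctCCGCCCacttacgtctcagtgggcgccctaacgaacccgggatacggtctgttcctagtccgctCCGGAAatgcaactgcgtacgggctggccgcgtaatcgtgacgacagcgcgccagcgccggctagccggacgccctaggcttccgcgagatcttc
MNAT1: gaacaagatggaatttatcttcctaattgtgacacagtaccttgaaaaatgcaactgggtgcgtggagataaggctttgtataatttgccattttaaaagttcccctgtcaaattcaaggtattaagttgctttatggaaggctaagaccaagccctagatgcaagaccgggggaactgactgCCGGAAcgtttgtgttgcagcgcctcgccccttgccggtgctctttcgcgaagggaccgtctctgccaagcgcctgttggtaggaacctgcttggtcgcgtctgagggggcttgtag
GTF2H1: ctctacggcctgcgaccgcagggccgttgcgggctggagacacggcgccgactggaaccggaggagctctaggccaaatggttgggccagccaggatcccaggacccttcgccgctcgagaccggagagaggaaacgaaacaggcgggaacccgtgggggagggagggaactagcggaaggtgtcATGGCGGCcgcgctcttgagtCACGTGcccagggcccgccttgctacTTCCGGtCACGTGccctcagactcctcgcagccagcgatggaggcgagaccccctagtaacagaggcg

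All 10 genes had a promoter in that table. The ETS core CCGGAA, which reads TTCCGG on the other strand, was found in 6 of 10, namely CCNH, MNAT1, ERCC3, GTF2H1, GTF2H2 and GTF2H3, and in 17.2% of the 35116 promoters listed. The GC box GGGCGG, which reads CCGCCC on the other strand, was found in 7 of 10 and in 45.0% of all promoters. The E-box CACGTG, which reads the same on both strands and is bound by MYC with MAX, was found in CDK7 and GTF2H1 and in 7.26% of all promoters. ATGGCGGC (the YY1 letters, GCCGCCAT on the other strand) was found in GTF2H1 alone, against 3.0% of all promoters. The TATA box letters TATAAA, or TTTATA on the other strand, were found in 0 of 10, against 11.5% of all promoters. The NRF1 letters GCATGCGC, or GCGCATGC on the other strand, were also found in 0 of 10, against 3.05%. A match describes letters in a window and does not show that a factor binds there.

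The table named KURAMOCHI had the Müllerian transcription factor PAX8 at 132 to 140 FPKM in DMSO and the serous marker WT1 at 53.4 to 60.1, while the mucin MUC16 (CA125) was below 1. The table named COV362 had PAX8 at 120 to 128 and the epithelial adhesion gene EPCAM at 150 to 174, while WT1 was below 1. Of the markers of other cell types, PTPRC, CD3E and PECAM1 were below 1 in every DMSO library, and DES, a muscle filament, was at 3.18 to 3.52 in Ku DMSO libraries. Between replicate libraries, Pearson's r over the active genes was 0.968 to 0.983, genes not being independent replicates. A log2 fold change here is the mean of log2(FPKM + 1) in 1 group minus that in the other, a scale that understates changes of low genes. They were tested with limma on all active genes of a line, and a gene was called where its log2 fold change was beyond 0.5 with a Benjamini-Hochberg adjusted p under 0.001. An exact two-sided permutation test of 2 libraries against 2 cannot give a p below 0.33.

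On the spike-in scale most of the TFIIH mRNAs were lower in cells given THZ1 250 nM. In Ku cells 2 of 10 genes were called lower at 50 nM and 8 of 10 at 250 nM, and in Cov cells 9 of 10 and 10 of 10, with 0 called higher. Of all active genes, 11.3% were called lower at the low and 68.6% at the high dose in Ku cells and 70.5% and 84% in Cov cells, so the counts are near the background at 250 nM. Genes called higher made up 0.0842%, 0.0491%, 0.0772% and 0.105% of active genes in the same order. In Ku cells the 10 genes had a median log2 fold change of -0.58 at 50 nM and -1.47 at 250 nM and in Cov cells of -0.94 and -1.57, beside -0.40, -1.11, -0.85 and -1.31 over all active genes. Without Cov DMSO replicate 1 or 2 the count at 50 nM in Cov cells was 5 or 3, beside 48.4% or 30.3% of active genes. With any single Ku library left out the count at 50 nM in Ku cells was 0, beside 0.0421% to 0.919% of active genes. Comparisons with DMSO share the DMSO libraries of their line. The spike-in scale is meant to show RNA per cell, so it rests on the cell counts, which were not given in the sources used here.

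Judged by overlap alone, the libraries of 8 of 10 genes lay wholly below DMSO at 50 nM in Ku cells and those of 10 of 10 at 250 nM, beside 75.8% and 95.9% of active genes. In Cov cells 10 of 10 did at each dose, beside 95.7% and 95.6%. CCNH at 50 nM in Ku cells was the only gene lying wholly above DMSO, beside 3.45% of active genes, and the other 3 comparisons had 0 such genes beside 0.414%, 0.674% and 0.54%.

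These directions rest on the spike-in scale. When every library was scaled to the same median of active genes, the median over all active genes became 0.11 (50 nM) and 0.30 (250 nM) in Ku cells and 0.13 and 0.33 in Cov cells. Called lower were then 0 and 0 of the 10 genes in Ku cells and 0 and 1 in Cov cells, beside 0.589%, 11.7%, 0.154% and 11.3% of active genes. Called higher, in the same order, were 0, 5, 0 and 3 genes, beside 0.0982%, 27%, 0.0912% and 26.6%. Under a median-of-ratios scaling, called lower were 1, 3, 0 and 2, beside 2.72%, 19%, 0.772% and 18.9% of active genes, and 0, 1, 0 and 0 were called higher, beside 0.519%, 11.1%, 0.14% and 8.57%. At 250 nM, CDK7, GTF2H1 and GTF2H2 had a fold change below 0 in both lines under each of the 3 scalings.

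**Figure D1:**
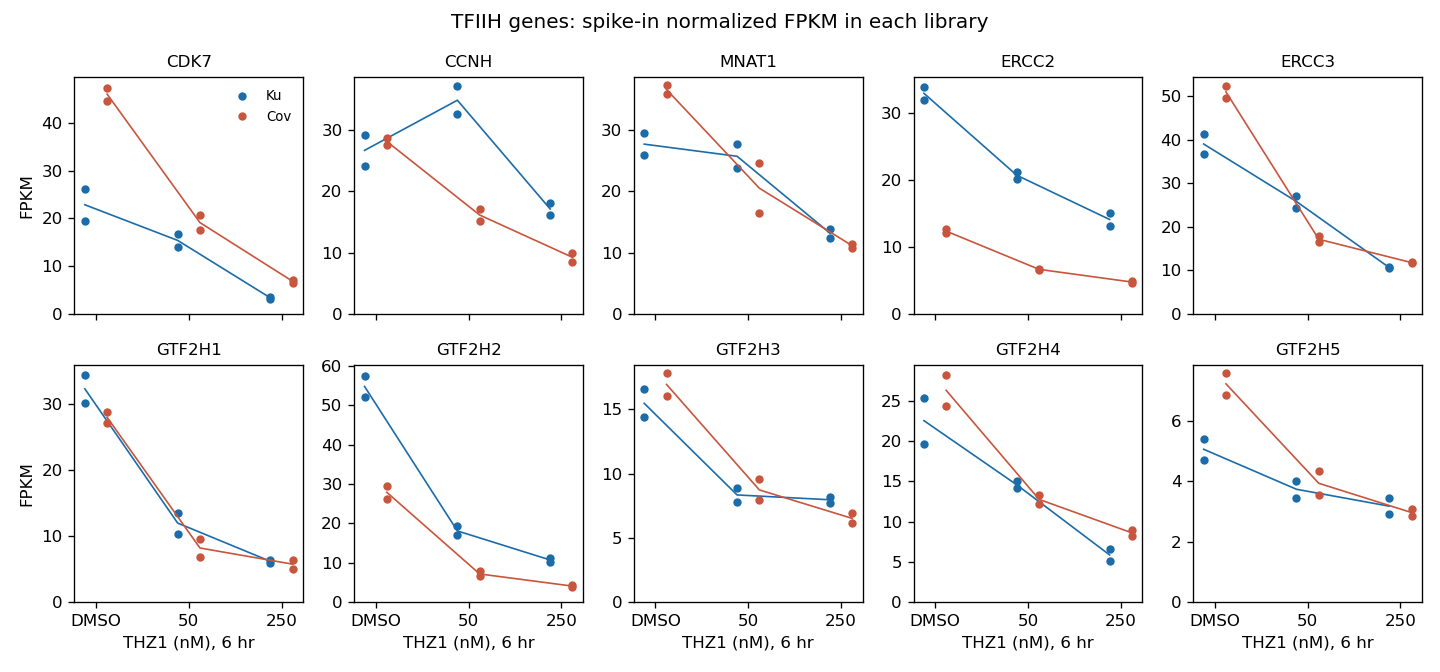
Spike-in normalized FPKM (vertical axis, from 0, a different range in each panel) of the 10 TFIIH genes by THZ1 dose (horizontal axis). Points are single libraries and lines join the means of 2. CDK7 ended at 14.7% of its DMSO mean in Ku cells and 14.8% in Cov cells, while CCNH in Ku cells lay above DMSO at 50 nM and below it at 250 nM on this scale, neither change being called.

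CDK7 is the catalytic subunit and a target of the inhibitor itself. The gene (ENSG00000134058) lies at chr5:68530622-68573257 on the plus strand of GRCh37, with 12 exons in its canonical transcript. In Ku cells its level was 26.3 and 19.5 FPKM in the DMSO libraries, 16.8 and 14.0 at 50 nM and 3.49 and 3.22 at 250 nM. Cov cells held more of it, with 44.7 and 47.4 in DMSO, 17.6 and 20.7 at 50 nM and 7.18 and 6.45 at 250 nM, though levels of the 2 lines come from separately normalized tables. No library of a higher dose overlapped with those of a lower dose in either line, a pattern shared by 66.7% of active genes in Ku cells and 73.8% in Cov cells. At 250 nM Ku cells had a log2 fold change of -2.44 ± 0.17 (the error is the SE of the fit, limma adjusted p = 3.38e-05) and Cov cells of -2.59 ± 0.11 (limma adjusted p = 1.03e-06). These were the largest falls among the 10 genes on the log2(FPKM + 1) scale, but the distance to GTF2H2 was not tested, and in FPKM itself GTF2H2 ended slightly lower in Cov cells, at 14.5% of its DMSO mean against 14.8%. On the fitted scale 9.08% and 7.42% of active genes fell further. At 50 nM CDK7 was called in Cov cells, at -1.23 ± 0.11 (limma adjusted p = 5.19e-05), and not in Ku cells, where the change was -0.53 ± 0.17 (limma adjusted p = 0.0385). Whether the lines differ was not tested.

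Cyclin H is the regulatory partner of CDK7. In Ku cells CCNH was at 29.3 and 24.1 FPKM in DMSO, 37.2 and 32.6 at 50 nM and 18.1 and 16.1 at 250 nM. Both libraries at 50 nM lay above both DMSO libraries on the spike-in scale, and both at 250 nM lay below. Neither change was called, with +0.38 ± 0.13 at 50 nM (limma adjusted p = 0.0441) and -0.61 ± 0.13 at 250 nM (limma adjusted p = 0.00383). Its change at 50 nM was above that of 98.5% of active genes in Ku cells. Cov cells had CCNH at 27.7 and 28.7 in DMSO, 15.2 and 17.1 at 50 nM and 9.97 and 8.53 at 250 nM, with no overlap between doses. The gene was called there at both doses, at -0.77 ± 0.11 and -1.51 ± 0.11 (limma adjusted p = 0.000366 and 6.97e-06), but not at 50 nM without either DMSO library or 50 nM replicate 1 (limma adjusted p = 0.00123 to 0.00396). Of the 75-base windows of its canonical transcript, 15% lie within a noncoding gene on the opposite strand. The kit kept strand, but whether counting used it was not given in the sources used here.

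MAT1 stabilizes the pair of CDK7 and cyclin H. In Ku cells MNAT1 was at 29.5 and 25.9 FPKM in DMSO, 27.7 and 23.8 at 50 nM and 13.9 and 12.5 at 250 nM. The 50 nM libraries overlapped with DMSO and those at 250 nM did not. Only the change at 250 nM was called, at -1.02 ± 0.12 (limma adjusted p = 0.000245), against -0.10 ± 0.12 at 50 nM (limma adjusted p = 0.475). The call was lost without DMSO replicate 1 or either 250 nM library (limma adjusted p = 0.00138 to 0.00229). Cov cells had 36.0 and 37.3 in DMSO, 16.5 and 24.6 at 50 nM and 11.5 and 10.8 at 250 nM. The pair at 50 nM was the widest of the 10 genes in Cov cells, and that change was not called, at -0.83 ± 0.17 (limma adjusted p = 0.00241). Without 50 nM replicate 2 it was called, at -1.11 (limma adjusted p = 4.29e-05). At 250 nM it was called, at -1.63 ± 0.17 (limma adjusted p = 4.97e-05). The gene is the longest of the 10, spanning 235.2 kb on chromosome 14, beside a median of 34.8 kb for the 10 genes and 31.5 kb for the active genes matched to the annotation.

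Ratios within a library do not depend on the scaling between libraries. The CCNH to CDK7 ratio in Ku cells was 1.12 and 1.24 in DMSO, 2.21 and 2.33 at 50 nM and 5.20 and 5.02 at 250 nM. In Cov cells it was 0.619 and 0.605, then 0.864 and 0.827, then 1.39 and 1.32. Thus CDK7 mRNA was above CCNH mRNA in Cov DMSO libraries and below it at 250 nM. The MNAT1 to CDK7 ratio in Ku cells was 1.12 and 1.33 in DMSO, 1.65 and 1.70 at 50 nM and 4.0 and 3.87 at 250 nM. In Cov cells the same ratio was 0.804 and 0.788, then 0.938 and 1.19, then 1.60 and 1.67. Both ratios were higher at each higher dose without overlap between groups.

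**Figure D2:**
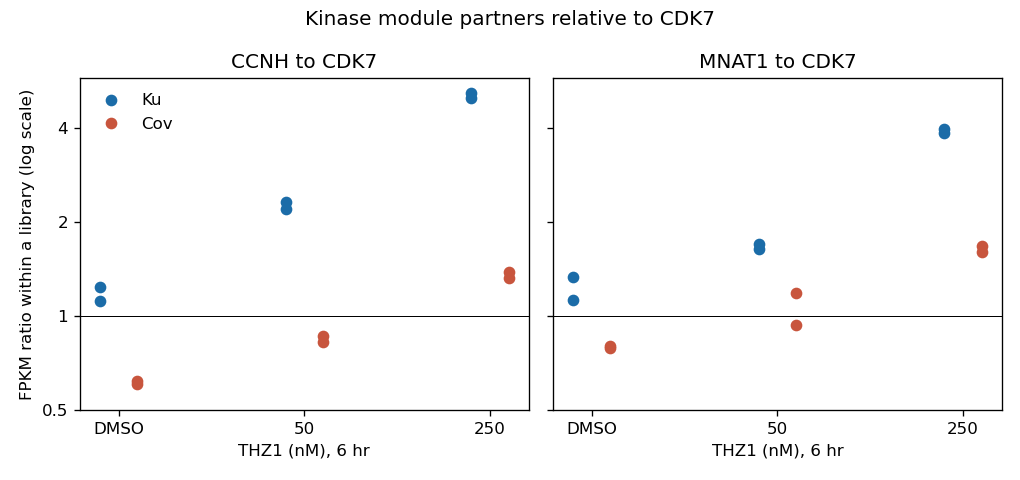
FPKM of CCNH (left) and MNAT1 (right) divided by that of CDK7 in the same library (vertical axis, log scale) by THZ1 dose, with a point for each library. All 4 libraries at 250 nM lie above 1 in both panels, up to 5.20 for CCNH in Ku cells.

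The core holds a translocase and a helicase. ERCC3 encodes XPB, which opens the promoter. It was at 41.2 and 36.7 FPKM in Ku DMSO libraries, 27.2 and 24.4 at 50 nM and 10.7 and 10.6 at 250 nM. In Cov cells it was at 49.6 and 52.2, then 16.5 and 17.8, then 11.9 and 11.7. The levels stepped down with dose without overlap in both lines. At 250 nM Ku cells had a log2 fold change of -1.78 ± 0.09 and Cov cells of -2.02 ± 0.08 (limma adjusted p = 1.54e-05 and 1.03e-06). At 50 nM the change was called in Cov cells, at -1.52 ± 0.08 (limma adjusted p = 2.16e-05), and was -0.58 ± 0.09 in Ku cells (limma adjusted p = 0.00374).

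ERCC2 encodes XPD, the helicase that opens damaged DNA in repair and anchors the kinase module to the core through MAT1. It was at 33.9 and 32.0 FPKM in Ku DMSO libraries, 20.2 and 21.2 at 50 nM and 13.1 and 15.1 at 250 nM. The Cov libraries held 12.1 and 12.6, then 6.63 and 6.70, then 4.92 and 4.62. No groups overlapped. At 250 nM Ku cells had a log2 fold change of -1.17 ± 0.09 (limma adjusted p = 5.60e-05) and Cov cells of -1.21 ± 0.09 (limma adjusted p = 9.63e-06), close to the median of active genes in each line. At 50 nM it was -0.64 ± 0.09 in Ku cells (limma adjusted p = 0.00246) and, called, -0.80 ± 0.09 in Cov cells (limma adjusted p = 0.000146), a call lost without either Cov DMSO library (limma adjusted p = 0.00142 and 0.00230).

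GTF2H1 and GTF2H2 were the only members called at 50 nM in Ku cells. GTF2H1 encodes a core subunit that contacts other factors of transcription and repair. It was at 34.4 and 30.2 FPKM in Ku DMSO libraries, 13.5 and 10.4 at 50 nM and 6.39 and 5.93 at 250 nM. Cov cells had 27.1 and 28.8, then 6.89 and 9.48, then 6.40 and 5.07. Every treated library lay far below every DMSO library. The log2 fold changes were -1.37 ± 0.15 and -2.21 ± 0.15 in Ku cells (limma adjusted p = 0.000880 and 2.80e-05) and -1.67 ± 0.16 and -2.11 ± 0.16 in Cov cells (limma adjusted p = 7.06e-05 and 9.62e-06). With any single Ku library left out, neither gene was called at 50 nM in Ku cells, and the Cov call of GTF2H1 at 50 nM was lost without Cov DMSO replicate 2 (limma adjusted p = 0.00102).

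GTF2H2 encodes the core subunit that binds and stimulates XPD. The row was at 57.5 and 52.1 FPKM in Ku DMSO libraries, 19.2 and 17.0 at 50 nM and 11.2 and 10.2 at 250 nM. In Cov cells it was at 26.2 and 29.5, then 6.51 and 7.78, then 4.41 and 3.70. It went from the highest of the 10 levels in Ku DMSO libraries to the fifth at 50 nM. The log2 fold changes were -1.55 ± 0.10 and -2.25 ± 0.10 in Ku cells (limma adjusted p = 0.000305 and 1.04e-05) and -1.83 ± 0.13 and -2.52 ± 0.13 in Cov cells (limma adjusted p = 2.62e-05 and 1.66e-06).

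The GTF2H2 values are uncertain because the gene has near-identical copies on chromosome 5. On GRCh37 it lies at chr5:70330843-70363516 on the minus strand, and 89.3% of the 75-base windows of its canonical transcript also occur in transcripts of other genes, 78.6% in GTF2H2C and 66.0% in GTF2H2B. A coding stretch as long as a read, at chr5:70337366-70337440 on the minus strand within a single exon, shows this: it occurs letter for letter in both copies, as do 68.0% of the coding windows, and it has no capitals because no base differs.
GTF2H2: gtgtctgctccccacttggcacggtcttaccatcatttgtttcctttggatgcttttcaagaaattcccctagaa

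Rows for the copies GTF2H2B and GTF2H2D were lower at 250 nM than in DMSO on the spike-in scale, and both were called by limma in each line. GTF2H2D was at 56.9 and 49.3 FPKM in Ku DMSO libraries and at 8.94 in both libraries at 250 nM, and in Cov cells at 31.4 and 35.3 and then 5.26 and 3.56. GTF2H2B was at 23.8 and 21.2, then 4.84 and 4.80, in Ku cells and at 14.5 and 15.9, then 2.86 and 2.50, in Cov cells. GTF2H2C was low and followed another course in Ku cells, at 4.41 and 5.77 in DMSO, 0.857 and 1.28 at 50 nM and 1.99 and 1.74 at 250 nM. Its libraries at 250 nM lay above those at 50 nM (+0.48 ± 0.17, limma adjusted p = 0.0423, not called), and its change from DMSO to 250 nM was not called there either, at -1.08 ± 0.17 (limma adjusted p = 0.00103). Summing the 4 rows gave -2.32 at 250 nM in Ku cells and -2.62 at 250 nM in Cov cells as log2 fold changes, both called by limma.

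Among the small core subunits, GTF2H3 pairs with the product of GTF2H2. It was at 16.6 and 14.4 FPKM in Ku DMSO libraries, 8.88 and 7.81 at 50 nM and 8.18 and 7.75 at 250 nM. On the spike-in scale most of its change in Ku cells was thus present at the lower dose, and the libraries at 50 nM and 250 nM overlapped. The Cov libraries held 16.0 and 17.8, then 7.91 and 9.55, then 6.90 and 6.13. At 250 nM Ku cells had a log2 fold change of -0.87 ± 0.12 (limma adjusted p = 0.000595) and Cov cells of -1.26 ± 0.12 (limma adjusted p = 3.37e-05). At 50 nM it was -0.82 ± 0.12 in Ku cells (limma adjusted p = 0.00259), which was not called, and -0.89 ± 0.12 in Cov cells (limma adjusted p = 0.000332). The Ku call at 250 nM was lost with any Ku library left out (limma adjusted p = 0.00119 to 0.00647), and the Cov call at 50 nM without either Cov DMSO library (limma adjusted p = 0.00173 and 0.00394).

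GTF2H4 encodes the subunit that regulates XPB. It was at 25.4 and 19.7 FPKM in Ku DMSO libraries, 15.0 and 14.2 at 50 nM and 5.07 and 6.65 at 250 nM. Cov cells had 24.4 and 28.3, then 13.4 and 12.2, then 8.23 and 8.99. The doses did not overlap in either line. At 250 nM Ku cells had a log2 fold change of -1.78 ± 0.17 (limma adjusted p = 0.000107) and Cov cells of -1.51 ± 0.11 (limma adjusted p = 7.46e-06). At 50 nM it was -0.59 ± 0.17 in Ku cells (limma adjusted p = 0.0265) and, called, -0.99 ± 0.11 in Cov cells (limma adjusted p = 0.000122), a call lost without Cov DMSO replicate 2 (limma adjusted p = 0.00144). A noncoding gene annotated on the same strand covers 93.4% of its windows.

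GTF2H5, the smallest subunit, stabilizes TFIIH and was the lowest of the 10 genes in each of the 6 conditions. It was at 5.41 and 4.72 FPKM in Ku DMSO libraries, 4.01 and 3.47 at 50 nM and 3.44 and 2.91 at 250 nM. In Cov cells it was at 6.86 and 7.61, then 3.54 and 4.34, then 3.08 and 2.86. The doses did not overlap, yet the steps were small. The log2 fold change was not called in Ku cells, at -0.36 ± 0.14 and -0.54 ± 0.14 (limma adjusted p = 0.0786 and 0.0119), and was called in Cov cells, at -0.74 ± 0.12 and -1.05 ± 0.12 (limma adjusted p = 0.000686 and 7.55e-05). The Cov call at 50 nM was lost with any Cov library but 50 nM replicate 2 left out (limma adjusted p = 0.00113 to 0.00760), and that at 250 nM without DMSO replicate 2 (limma adjusted p = 0.00113).

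**Figure D3:**
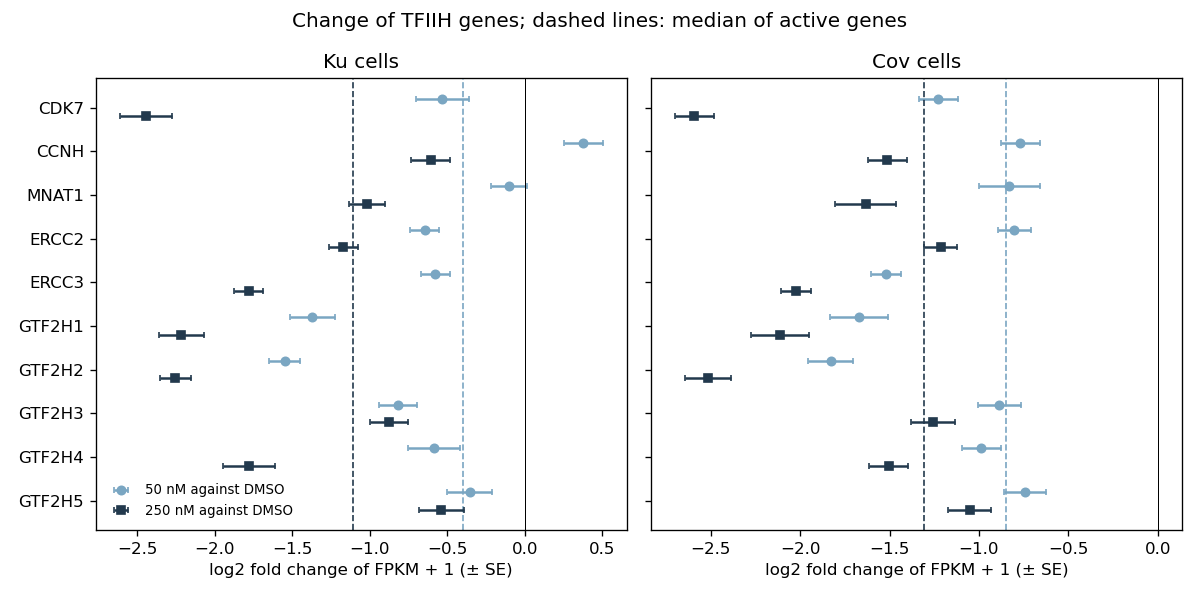
Log2 fold change of FPKM + 1 (horizontal axis, bars are limma standard errors) of each TFIIH gene at both doses, on the spike-in scale. Dashed lines are medians of all active genes, and CDK7, ERCC3, GTF2H1, GTF2H2 and GTF2H4 lie to the left of theirs at both doses in both lines. Under scaling to equal medians the fold changes of CCNH, MNAT1, ERCC2, GTF2H3, GTF2H4 and GTF2H5 at 250 nM were above 0 in both lines, and that of ERCC3 in Ku cells.

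From 50 nM to 250 nM all 3 kinase module genes fell in Ku cells on the spike-in scale, where CCNH and MNAT1 turned under scaling to equal medians. Called lower between the doses were CDK7, CCNH, MNAT1 and ERCC3, which are 4 of 10 genes beside 36% of active genes. The log2 differences were -1.91 ± 0.17, -0.98 ± 0.13, -0.91 ± 0.12 and -1.20 ± 0.09 (limma adjusted p = 0.000208, 0.000758, 0.000741 and 0.000144). GTF2H4 narrowly missed the threshold, at -1.19 ± 0.17 (limma adjusted p = 0.00110). On the spike-in scale GTF2H3 was level between the doses, at -0.06 ± 0.12 (limma adjusted p = 0.686). It was called higher at 250 nM under scaling to equal medians, at +1.12 (limma adjusted p = 0.000582). The same held under median-of-ratios scaling, at +0.76 (limma adjusted p = 0.000819). In Cov cells CDK7 alone was called, at -1.36 ± 0.11 (limma adjusted p = 9.34e-05), which is 1 of 10 genes beside 24.4% of active genes. None was called higher between the doses in either line, beside 0.0421% and 0.0842% of active genes. The Ku count was 0 without 50 nM replicate 1 or either 250 nM library, beside 5.55% to 7.17% of active genes, 1 without 50 nM replicate 2, beside 11.2%, and 3 without either DMSO library, beside 32.2% and 32.3%. The libraries at 250 nM lay wholly below those at 50 nM for 9 of 10 genes in Ku cells, all but GTF2H3, and for 10 of 10 in Cov cells, beside 87.7% and 75.6% of active genes, and wholly above for 0, beside 1.26% and 4.76%. The Cov count was 3 without 50 nM replicate 1, beside 27.9% of active genes, and 1 without any other library, beside 10.7% to 18.7%.

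The summed FPKM of the 10 genes in Ku cells was 107% and 92.8% of its DMSO mean in the DMSO libraries, 67.9% and 60.4% at 50 nM and 33.5% and 32.6% at 250 nM. For Cov cells it was 96.5% and 103%, then 39.4% and 46.4%, then 26.5% and 24.5%. In Ku cells DMSO replicate 1 was above replicate 2 for all 10 genes, and also in the median FPKM of active genes, at 12.8 against 10.9. The make-up of TFIIH mRNA within a library also does not depend on scaling between libraries. CDK7 took 8.77% and 7.51% of the summed FPKM of the 10 genes in Ku DMSO libraries, 8.87% and 8.29% at 50 nM and 3.72% and 3.53% at 250 nM. In Cov cells its share was 16.5% and 16.3%, then 15.9% and 15.9%, then 9.64% and 9.37%. The share was thus lowest at 250 nM, when CDK7 had gone from rank 7 to rank 9 in Ku cells and from rank 2 to rank 5 in Cov cells. CCNH took 9.78% and 9.30% in Ku DMSO libraries, 19.6% and 19.3% at 50 nM and 19.4% and 17.7% at 250 nM, and became the highest of the 10. GTF2H2 moved the other way, in Ku cells from 19.2% and 20.1% to 10.1% and 10.0% at 50 nM and 11.9% and 11.3% at 250 nM. In Cov cells CCNH took 10.2% and 9.88%, then 13.7% and 13.2%, then 13.4% and 12.4%. GTF2H2 took 9.69% and 10.2% there, then 5.88% and 5.98%, then 5.92% and 5.38%. The lowest gene in each group was GTF2H5.

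**Figure D4:**
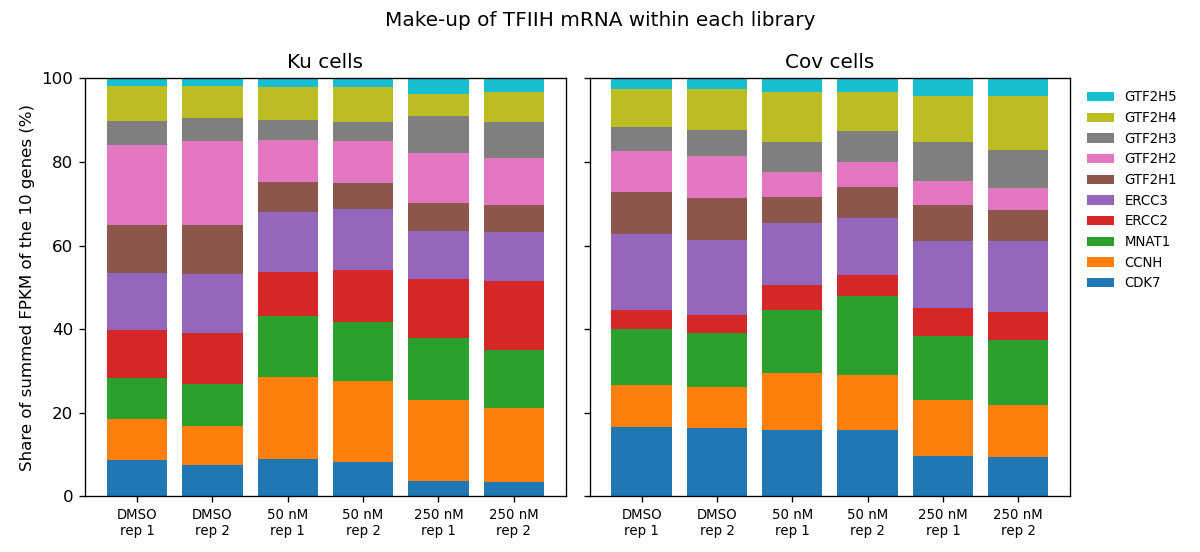
Share of each gene in the summed FPKM of the 10 TFIIH genes (vertical axis, percent), with a stacked bar for each library. The CDK7 segment at the bottom narrows to 3.53% to 3.72% in Ku cells and 9.37% to 9.64% in Cov cells at 250 nM. CCNH above it is wider than in DMSO in both lines, more so in Ku cells.

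Neighbours in the order of levels were often alike. In Ku DMSO libraries MNAT1, CCNH, CDK7 and GTF2H4 formed a run in which each range overlapped with the next, and in Cov DMSO libraries CCNH, GTF2H1, GTF2H2 and GTF2H4 did. GTF2H2 in Ku cells and ERCC3 in Cov cells stood clear at the top. At 250 nM CCNH stood clear at the top in Ku cells, while CDK7 overlapped with GTF2H5 at the bottom. The mean log2 level of the 3 kinase genes minus that of the 7 core genes was 0.15 and 0.04 in Ku DMSO libraries, 0.89 and 0.82 at 50 nM and 0.33 and 0.19 at 250 nM. In Cov cells the same difference was 0.80 and 0.74, then 0.96 and 1.11, then 0.55 and 0.51. This mean difference was thus highest at 50 nM in both lines, and at 250 nM ended above its DMSO value in Ku cells and below it in Cov cells. It averages genes that moved unlike each other, such as CDK7 at -0.53 and CCNH at +0.38 at 50 nM in Ku cells.

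Of all active genes searched, some had changes closer to those of CDK7 than any TFIIH subunit had. By Euclidean distance between the changes from the DMSO mean over the 8 treated libraries, the nearest of 14250 genes were TSPYL1 (0.0963), TTF1 (0.110), SGOL2 (0.169), MAK16 (0.184) and DDX6 (0.222), in log2 units. The nearest TFIIH gene was ERCC3, at rank 1421 with a distance of 1.31. MNAT1 ranked 5825, CCNH 8998 and GTF2H5 9897. The distance describes likeness of values only. With so many more genes outside TFIIH than within it, a nearer gene outside was likely by number alone.

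TFIIH was set beside 3 lists of genes it works with. The first held 8 other general transcription factors, which place RNA polymerase II at promoters. In Ku cells 2 were called lower at 50 nM and 8 at 250 nM, and in Cov cells 6 and 8, beside the 11.3%, 68.6%, 70.5% and 84% of all active genes. Their medians at 250 nM were -1.66 and -2.19, beside -1.11 and -1.31. Largest and smallest changes in these lists are on the log2(FPKM + 1) scale, which shrinks those of low genes. The largest fall at 250 nM in Ku cells was that of GTF2E1, part of TFIIE, which recruits TFIIH, at -3.28, and the smallest that of GTF2F2, part of TFIIF, at -0.98, which was not called without either 250 nM library (limma adjusted p = 0.00132 and 0.00156). In Cov cells the largest was that of GTF2B, which bridges TBP and the polymerase, at -3.12, and the smallest that of GTF2F1, also of TFIIF, at -1.35. In FPKM itself GTF2E1 fell further there, to 5.13% of its DMSO mean against 8.53% for GTF2B. At 50 nM GTF2B was not called in either line, at 0.52 in Ku cells and -0.38 in Cov cells (limma adjusted p = 0.00395 and 0.00603).

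Of 16 nucleotide excision repair genes outside TFIIH, Ku cells had 2 called lower at 50 nM and 12 at 250 nM, and Cov cells 14 and 16, beside the same shares of active genes. Their medians at 250 nM were -1.08 and -1.18, a little above those of all active genes. On the log2(FPKM + 1) scale the damage sensor XPC had the largest fall in Ku cells, at -2.12, and DDB1, part of the ultraviolet damage sensor, the smallest that was called, at -0.70, which was also not called without either 250 nM library (limma adjusted p = 0.00138 and 0.00170). The 4 not called were CETN2 at -0.24, RPA1 at -0.63, RPA3 at -0.61 and ERCC8 at -0.88 (limma adjusted p = 0.129, 0.00125, 0.00173 and 0.00150), of which RPA1 was called without DMSO replicate 2, at -0.76 (limma adjusted p = 0.000597). In Cov cells the range ran from -2.21 for the endonuclease ERCC5 to -0.94 for UVSSA, which acts in transcription-coupled repair. In FPKM itself the low nuclease gene ERCC4 fell furthest in both lines, to 5.71% of its DMSO mean in Ku cells and 6.83% in Cov cells, against 15.9% for XPC and 10.6% for ERCC5.

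The list of 8 known CDK7 substrates held POLR2A, the largest subunit of RNA polymerase II, and 7 cyclin-dependent kinases. In Ku cells 0 were called lower at 50 nM and 8 at 250 nM, and in Cov cells 7 and 8, beside the 11.3%, 68.6%, 70.5% and 84% of active genes. Their medians at 250 nM were -1.71 and -2.30, beside -1.11 and -1.31. POLR2A was the sole gene of these lists called higher, at 50 nM in Ku cells, at +0.80 ± 0.09 (limma adjusted p = 0.000993), and with any single Ku library left out it was not called. In Cov cells at 50 nM it was at +0.08 ± 0.09 (limma adjusted p = 0.456). At 250 nM in Ku cells it was called lower, at -0.92, the smallest fall of the list, and CDK12, itself a THZ1 target, had the largest, at -2.34. In Cov cells the largest and smallest were those of CDK6, at -2.75, and CDK4, at -0.98. In FPKM itself CDK13 fell furthest, to 14.5% of its DMSO mean in Ku cells against 15.4% for CDK12, and to 11.3% in Cov cells against 14.0% for CDK6.

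**Figure D5:**
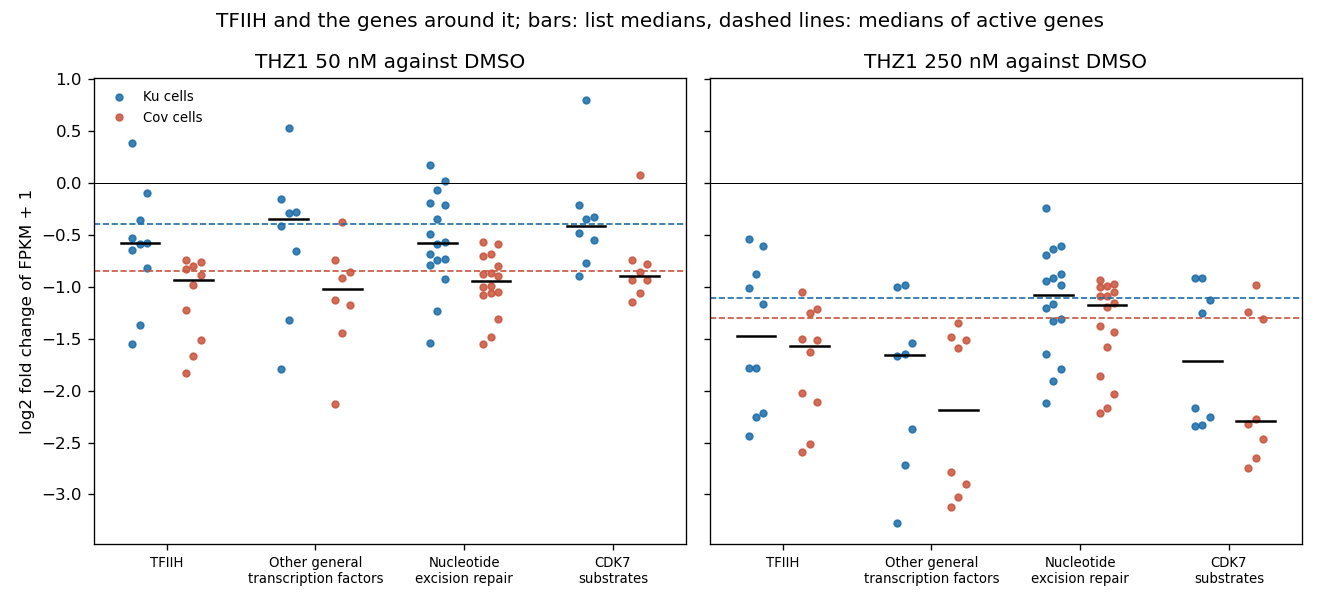
Log2 fold change of FPKM + 1 (vertical axis, spike-in scale) at 50 nM (left) and 250 nM (right), with a point for each gene of TFIIH and of the 3 lists. Black bars are list medians and dashed lines medians of all active genes. Every point at 250 nM is below 0, but under scaling to equal medians the Ku fold changes of 7 of 10 TFIIH genes, 5 of 8 general transcription factors, 12 of 16 repair genes and 4 of 8 substrates were above 0, and so were 6, 4, 11 and 3 in Cov cells.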

How the data were processed

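mRNA was measured in 12 libraries. The authors aligned reads to hg19 with HISAT, made FPKM with Cufflinks tools including Cuffnorm and normalized them to spike-ins. These FPKM were taken as deposited, in a table per line (versions not given in the sources used here). FPKM are not counts, so edgeR was not used and depth is unknown. Values were transformed as log2(FPKM + 1), and genes with FPKM above 1 in at least 1 library were fitted per line with limma 3.58.1 in R 4.3.3 (3 groups of 2, eBayes with trend, two-sided). The lines were normalized separately, so differences between them were not tested. Members and lists were chosen with earlier results of these data known. Named besides the 10 genes were the GTF2H2 copies, the largest and smallest called change of each list at 250 nM, list genes not called, and the 5 genes nearest to CDK7. POLR2A and GTF2B at 50 nM and ERCC4 and CDK13 were added after their values were seen. Gene positions are from GENCODE lifted to GRCh37, of which 89.5% of active genes matched. Alternatives were other pseudocounts, minimum FPKM, scalings, thresholds, fits and single libraries left out. Plots were made in Python 3.11.15 (matplotlib 3.10.9).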

Additional observations from a re-analysis of the deposited data

Results flagged for a closer look

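At 50 nM both Ku libraries of CCNH lay above both DMSO libraries and both Cov libraries lay below theirs. The log2 fold change was 0.38 in Ku cells, with single library pairs between 0.15 and 0.61, and -0.77 in Cov cells, with pairs between -0.87 and -0.66. GTF2B showed the same opposition at 50 nM, with 0.52 in Ku cells (0.40 to 0.65) and -0.38 in Cov cells (-0.42 to -0.33). The difference between the lines was not tested, since their tables were normalized separately. For both genes the Cov direction turns under scaling to equal medians, to 0.40 for CCNH and 0.80 for GTF2B.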

How the results depend on the processing

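The counts of TFIIH genes called lower were 2, 8 and 4 in Ku cells (50 nM and 250 nM against DMSO, then 250 nM against 50 nM) and 9, 10 and 1 in Cov cells. All genes called lower numbered 1607, 9774 and 5132 in Ku and 10042, 11971 and 3474 in Cov cells, and each count below stands beside the number of all genes called lower in the same fit. Scaling to equal medians gave 0, 0 and 0 (all genes 84, 1664 and 939) in Ku cells and 0, 1 and 0 (22, 1613 and 720) in Cov cells. Median-of-ratios scaling gave 1, 3 and 1 (388, 2708 and 1580) and then 0 and 2 (110 and 2694) for the first 2 Cov counts. With no minimum FPKM the Ku counts at 50 nM and between the doses were 0 and 1 (3 and 1901), without the trend 1 and 2 (1159 and 4458), and at an adjusted p under 0.05 7 and 8 (5734 and 8295). A fit of only the 2 groups gave 0 (9) for the Ku count at 50 nM. With a log2 fold change beyond 1, the Ku count between the doses was 2 (3598) and the Cov count at 50 nM 4 (5054). The Cov count between the doses was 2 with a pseudocount of 0.1 (4212) or a minimum FPKM of 10 (3395), and 6 at an adjusted p under 0.05 (5909). Leaving out 1 library gave 0 to 0 (6 to 131), 6 to 7 (6085 to 9044) and 0 to 3 (791 to 4599) in Ku cells and 3 to 10 (4314 to 9929), 9 to 10 (10451 to 12341) and 1 to 3 (1518 to 3974) in Cov cells. The replicate number as a block gave 2, 9 and 6 (989, 9485 and 4952) in Ku cells and 6, 10 and 0 (7266, 11202 and 1130) in Cov cells. Deviations of same-numbered libraries correlated over genes at -0.070 to 0.028, a measure that cannot see a shift of a whole library. Whether same-numbered libraries share a batch was not tested. Under scaling to equal medians the log2 fold change turned positive at 50 nM in Ku cells for CDK7 (0.14), MNAT1 (0.57), ERCC2 (0.036), ERCC3 (0.11), GTF2H4 (0.082) and GTF2H5 (0.21), and in Cov cells for CCNH (0.40), MNAT1 (0.35), ERCC2 (0.29), GTF2H3 (0.24), GTF2H4 (0.17), GTF2H5 (0.28) and GTF2B (0.80). At 250 nM it turned in Ku cells for CCNH (1.30), MNAT1 (0.88), ERCC2 (0.73), ERCC3 (0.11), GTF2H3 (0.96), GTF2H4 (0.034), GTF2H5 (1.09), GTF2F2 (0.96), DDB1 (1.26), CETN2 (1.71), ERCC8 (0.85), RPA1 (1.30), RPA3 (1.29) and POLR2A (1.05), and in Cov cells for CCNH (0.44), MNAT1 (0.34), ERCC2 (0.63), GTF2H3 (0.64), GTF2H4 (0.44), GTF2H5 (0.66), GTF2F1 (0.67), UVSSA (0.45) and CDK4 (1.08). Between the doses in Ku cells it turned for CCNH (0.24), MNAT1 (0.30) and GTF2H3 (1.12). Under median-of-ratios scaling it turned at 50 nM in Ku cells for MNAT1 (0.43) and GTF2H5 (0.092), and in Cov cells for CCNH (0.21), MNAT1 (0.16), ERCC2 (0.12), GTF2H3 (0.063), GTF2H5 (0.12) and GTF2B (0.61). At 250 nM it turned in Ku cells for CCNH (0.79), MNAT1 (0.37), ERCC2 (0.22), GTF2H3 (0.46), GTF2H5 (0.63), GTF2F2 (0.45), DDB1 (0.74), CETN2 (1.19), ERCC8 (0.38), RPA1 (0.78), RPA3 (0.78) and POLR2A (0.53), and in Cov cells for CCNH (0.0044), ERCC2 (0.21), GTF2H3 (0.21), GTF2H4 (0.0054), GTF2H5 (0.27), GTF2F1 (0.22), UVSSA (0.12) and CDK4 (0.63), and between the doses in Ku cells for GTF2H3 (0.76). Scaling to equal medians put the median of all active genes at 0.30 in Ku cells and 0.33 in Cov cells at 250 nM, so a value above 0 can still lie below that median. Without 50 nM replicate 2, MNAT1 at 50 nM in Ku cells was at 0.00066, and without 50 nM replicate 1, GTF2H3 between the doses was at 0.025, its lowest value with a library left out being -0.14. With single libraries left out, the change in the share of CDK7 at 250 nM ran from -5.14 to -3.88 points in Ku cells and from -7.05 to -6.77 in Cov cells, and the change in the level of the kinase module over the core from 0.09 to 0.23 and from -0.27 to -0.21. The sum of GTF2H2 and its copies, an alternative chosen after seeing the data, changed no call. Depth is unknown, so the precision of low genes such as GTF2H5 cannot be set from counts.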
